A study of Mus musculus with 2 samples.

Results

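Mir148a, Mir148b and Mir152 make up a microRNA family that is encoded by 3 separate genes. They were taken by gene name from the GENCODE M21 annotation, and all 3 were found among the 2202 microRNA genes counted. Small RNA was sequenced from heart tissue of female B6CASTF1/J mice, a hybrid of laboratory mouse strains, at 4 days of age. The series has 1 group of 2 libraries, 1 per heart: biological replicate 1 from the animal numbered 3 and biological replicate 2 from the animal numbered 4, under the same donor entry. RNA was limited to sizes below 30 nt per the labels, and no treatment, knockout or other age was analysed here. The questions the design allows are therefore how much of each gene the hearts held, and how far the hearts differed.

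MicroRNAs are short RNAs cut from hairpin transcripts. Loaded into an Argonaute protein, they pair with messenger RNAs mainly through the seed, bases 2 to 8, and lower the stability or translation of their targets. The miR-148/152 family is known for targeting transcripts of DNA methyltransferases. Mir148a is also known from liver, where it targets the transcript of the LDL receptor.

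The mature sequences are shown because the family is defined by their seed, given here in capitals. The 3p arm is the one by which the family is known (RefSeq, GRCm38.p6, 5′ to 3′):
miR-148a-3p: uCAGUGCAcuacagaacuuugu
miR-148b-3p: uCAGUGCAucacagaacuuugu
miR-152-3p: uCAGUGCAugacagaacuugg

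All 3 of these carry the seed CAGUGCA, and no other of the 1679 mature sequences in the RefSeq table does. Counted from 1 at the 5′ end, miR-148a-3p differed from miR-148b-3p by C9U and U10C, so 20 of 22 bases were the same. From miR-148a-3p to miR-152-3p the changes were C9U, U10G and U20G, which left 18 of 21 compared bases the same. Between miR-148b-3p and miR-152-3p they were C10G and U20G. Every difference thus lay outside the seed.

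The opposite arm does not share 1 seed across the family. The 5p sequences, again with bases 2 to 8 in capitals, were:
miR-148a-5p: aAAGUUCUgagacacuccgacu
miR-148b-5p: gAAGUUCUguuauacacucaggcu
miR-152-5p: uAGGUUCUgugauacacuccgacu

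Mir148a and Mir148b shared the 5p seed AAGUUCU, which no other entry of the table held, while the 5p arm of Mir152 began with the seed AGGUUCU, found in 1 entry only. Counts were deposited per hairpin gene, so the 3p and 5p arms cannot be told apart in the values that follow. The hairpins show what a count covers, with both mature arms in capitals:
Mir148a: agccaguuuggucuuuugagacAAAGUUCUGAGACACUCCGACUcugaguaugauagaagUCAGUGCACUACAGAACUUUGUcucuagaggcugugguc
Mir148b: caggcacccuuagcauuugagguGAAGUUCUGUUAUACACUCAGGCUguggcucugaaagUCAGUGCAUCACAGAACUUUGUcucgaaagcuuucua
Mir152: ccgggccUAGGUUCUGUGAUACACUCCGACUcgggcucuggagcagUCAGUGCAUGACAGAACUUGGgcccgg

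The likeness of the mature sequences matters for counting, since reads that match several places were counted for no gene. The longest exact stretch shared by the hairpins was 15 nt between Mir148a and Mir148b, 12 nt between Mir148a and Mir152, and 11 nt between Mir148b and Mir152. None of the 3 shared a stretch of 20 nt with any of the other 2201 annotated hairpins on either strand. Each of the 6 mature sequences occurred, among 141767 annotated transcripts, only in its own gene, and its reverse complement in none. Sequence outside annotated transcripts was not searched, and differences of the CAST parent from the reference were not examined.

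The 3 genes lie on different chromosomes, and 2 of them sit in paralogous hosts. Mir152 (ENSMUSG00000065515.1; mm10, chr11:96850393-96850465, plus strand) lies in intron 1 of Copz2. Mir148b (ENSMUSG00000065560.1; chr15:103285125-103285221, plus strand) lies in intron 1 of Copz1. Copz1 and Copz2 encode alternative zeta subunits of the COPI vesicle coat, which carries cargo between the Golgi and the endoplasmic reticulum, and each host is transcribed from the same strand as its microRNA. Mir148a (ENSMUSG00000065505.1; chr6:51269812-51269910, minus strand) overlaps no other annotated gene. Its nearest neighbour of any kind was Gm32479, 13.6 kb away, and its nearest protein-coding gene was Nfe2l3, 163 kb away. The nearest other microRNA gene was 352 kb from Mir148a, 213 kb from Mir152 and 65.2 kb from Mir148b, so none belongs to a tight microRNA cluster. Host transcripts are longer than the RNA selected and were not measured.

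Replicate 1 held 6417302 own-strand counts over microRNA genes and replicate 2 held 5662222, and 3 counts corresponded to 0.467 and 0.530 CPM (CPM, a gene's count scaled to that total). Reads mapping to several places made up 39.6% and 43.2% of all reads and are in no gene's count. The microRNA genes Mir208a, Mir208b and Mir499, which lie in myosin genes and are known from heart muscle, together held 20993 and 19146 CPM.

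Mir148a was the most abundant of the family, Mir152 came next and Mir148b was lowest, in both hearts. Mir148a had 4681 counts in replicate 1 and 3503 in replicate 2, or 729 and 619 CPM (95% intervals 709 to 751 and 598 to 639, Clopper-Pearson, exact). Its mean was 674 ± 78.3 CPM (SD, n = 2). In CPM its level was the higher of the pair in replicate 1, with intervals that did not overlap, but they cover counting error only. Gaps beyond counting error were common: 47.9% of the 491 genes tested had an adjusted p below 0.05 in the exact binomial test described below. With TMM factors the direction for Mir148a was the opposite (1.07-fold higher in replicate 2).

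Mir152 had 1644 and 1581 counts, or 256 CPM (244 to 269) and 279 CPM (266 to 293). Its mean was 268 ± 16.3 CPM (SD, n = 2). Here replicate 2 had the higher level, and the intervals overlapped at their edges. Mir148b had 717 and 605 counts, or 112 CPM (104 to 120) and 107 CPM (98.5 to 116). Its mean was 109 ± 3.45 CPM (SD, n = 2), with intervals that overlapped widely.

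The order of levels held beyond the spread between hearts. The lowest value of Mir148a, 619 CPM, lay above the highest value of Mir152, 279 CPM, and the lowest value of Mir152, 256 CPM, lay above the highest value of Mir148b, 112 CPM. With 2 libraries of each, no test of this order over samples was made. RNA came from tissue per the labels, so fewer cells of a type and less RNA per cell cannot be told apart.

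**Figure D1:**
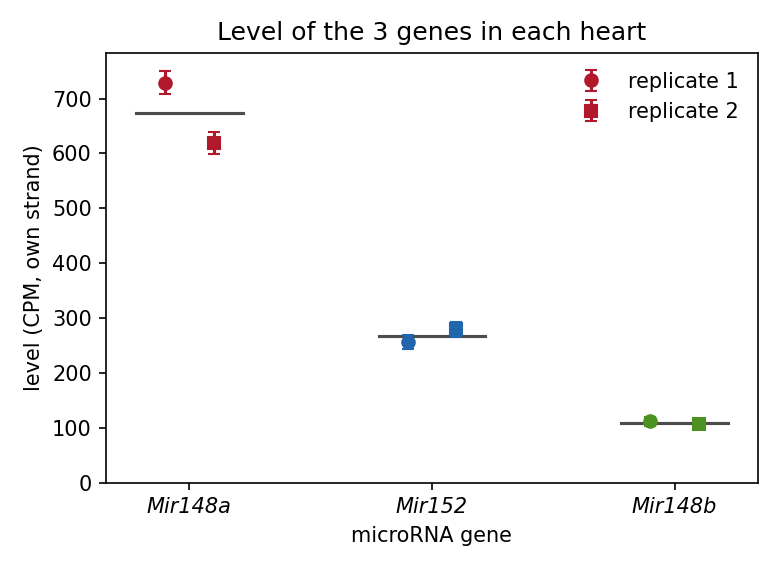
Level of each gene in CPM (vertical axis, from 0) for replicate 1 (circles) and replicate 2 (squares), with exact 95% counting intervals and the mean as a line. The points of Mir148a sit at 729 and 619 CPM, above those of Mir152 at 256 and 279 CPM and those of Mir148b at 112 and 107 CPM.

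Among all microRNA genes, as counted here, the family was of middle to upper abundance. By mean level Mir148a took place 88, Mir152 place 129 and Mir148b place 169 of 2202, of which 373 reached 10 counts in both libraries. The median level of those 373 genes was 75.2 CPM, below all 3 members. Mir148a stood at place 89 in each library, Mir152 at 134 and 123, and Mir148b at 167 and 163. Reads that match several places are missing from these levels, so genes with near copies may stand too low. Mir26a-1, which shares 20 nt with another hairpin, was at 4.67 and 4.95 CPM, for example. The places are therefore an order of counts, which may differ from the order of abundance.

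**Figure D2:**
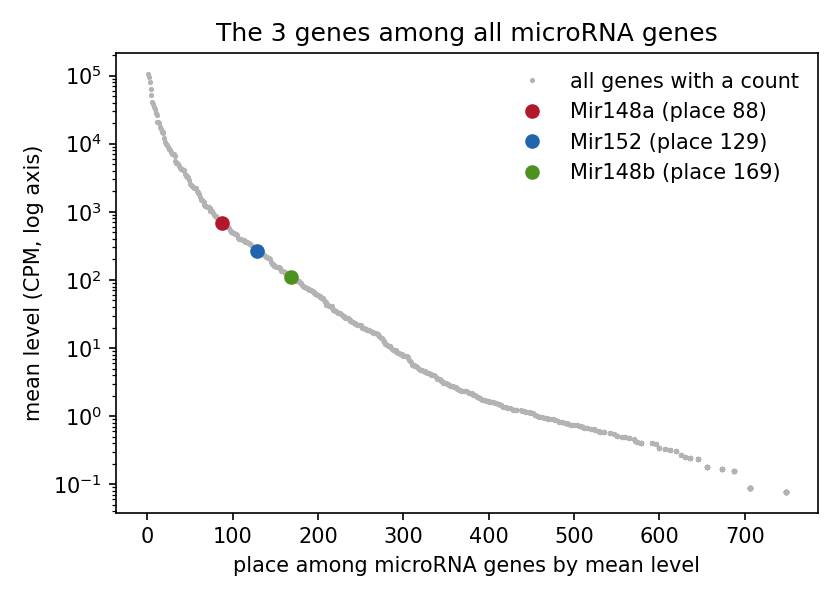
Mean level in CPM (log axis) of every microRNA gene with a count, plotted against its place in the order of levels. Mir148a (place 88), Mir152 (129) and Mir148b (169) sit on the steep part of the curve, well above the tail of genes near 1 CPM.

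The family sum came to 0.110% of the own-strand counts over microRNA genes in replicate 1 and 0.100% in replicate 2. This was 1097 and 1005 CPM, a mean of 1051 ± 65.5 CPM (SD, n = 2). For scale, the Mir26 family, which also has 3 genes, held 21358 and 20927 CPM, which was 19.5 and 20.8 times as much. Mir26b alone made up 99.9% and 98.9% of that sum, although Mir26a-1 and Mir26a-2 share a stretch of 20 nt and so may miss multi-mapped reads. As counted, the Mir148/152 family was spread more evenly over its members. Because Mir26a reads may be missing, neither this contrast nor the 19.5 and 20.8 can be read as a comparison of true levels.

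Within the family sum, which does not depend on how a library is scaled, Mir148a made up 66.5% in replicate 1 (65.4 to 67.6, an exact 95% interval by Clopper and Pearson) and 61.6% in replicate 2 (60.3 to 62.8). Its mean share was 64.0% ± 3.46 (SD, n = 2). Mir152 made up 23.3% (22.4 to 24.4) and 27.8% (26.6 to 29.0), a mean of 25.6% ± 3.14. The intervals of these genes did not overlap between hearts: Mir148a held more of the sum in replicate 1 and Mir152 more in replicate 2. These intervals cover counting error only, and the shares are parts of 1 sum, so they are not separate results. The ratio of Mir148a to Mir152 changed between hearts by 0.36 in log2. For single genes, the median absolute log2 ratio between hearts was 0.39 with TMM factors, over the 373 genes with 10 counts in both libraries. Mir148b made up 10.2% (9.48 to 10.9) and 10.6% (9.85 to 11.5), a mean of 10.4% ± 0.320, and a difference was not detectable at this depth.

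The same difference can be read from ratios of counts. Mir148a outnumbered Mir152 2.85-fold in replicate 1 and 2.22-fold in replicate 2 (mean 2.53 ± 0.447, SD, n = 2). Mir152 outnumbered Mir148b, the other member inside a coatomer gene, 2.29-fold and 2.61-fold (mean 2.45 ± 0.227). From Mir148a to Mir148b the ratio was 6.53 and 5.79 (mean 6.16 ± 0.522).

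**Figure D3:**
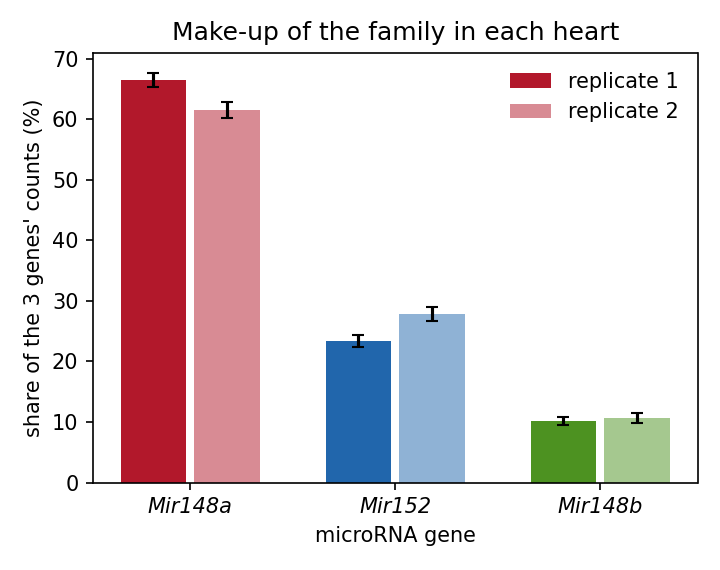
Share of the family's counts (percent, bars from 0) taken by each gene in replicate 1 (dark) and replicate 2 (light), with exact 95% counting intervals. Mir148a is at 66.5% and 61.6%, Mir152 at 23.3% and 27.8%, and Mir148b near 10.4% in both.

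None of the 3 genes passed the call for a difference between the hearts. The test was a two-sided exact binomial test on counts, with libraries scaled by TMM factors and Benjamini-Hochberg adjustment over all genes tested, and a call needed more than 2-fold besides an adjusted p below 0.05. It compares 2 libraries of 1 group and knows counting noise only. Of 491 genes tested, 11.2% were called, against 0 of 3 members.

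With TMM factors Mir152 had the widest gap of the 3, with a log2 ratio of replicate 1 over replicate 2 of −0.46 (counting SE 0.05, exact binomial adjusted p = 1.63e-18), or 1.37-fold higher in replicate 2. For Mir148b the log2 ratio was −0.27 (counting SE 0.08, exact binomial adjusted p = 0.00201), or 1.20-fold. For Mir148a it was −0.09 (counting SE 0.03, exact binomial adjusted p = 0.00798), or 1.07-fold. All 3 adjusted p-values lay under 0.05 in this exact test, as did those of 47.9% of the genes tested. In the same exact test, that of Mir148a was 0.137 when all genes with a count were tested. It was 0.138 when 10 counts were required in each library. With total counts the adjusted p of this exact test was 4.96e-13 for Mir148a, then higher in replicate 1. It was 0.0312 for Mir152 and 0.533 for Mir148b.

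In size, the members' gaps were ordinary for these libraries. The median absolute log2 ratio of these 373 better-counted genes was 0.39, and that of the 3 members was 0.27. Of the 373 genes, 11.5% had a smaller gap than Mir148a, 34.9% a smaller gap than Mir148b and 58.2% a smaller gap than Mir152. The exact test of edgeR was run as an alternative. Its common dispersion had to be taken from the gap between these very libraries, 1 on each side, which leaves little room for any call. It called 0.815% of genes tested and 0 of the 3 (unadjusted p = 0.897 for Mir148a, 0.535 for Mir152 and 0.717 for Mir148b), and a gene it does not call may differ all the same.

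**Figure D4:**
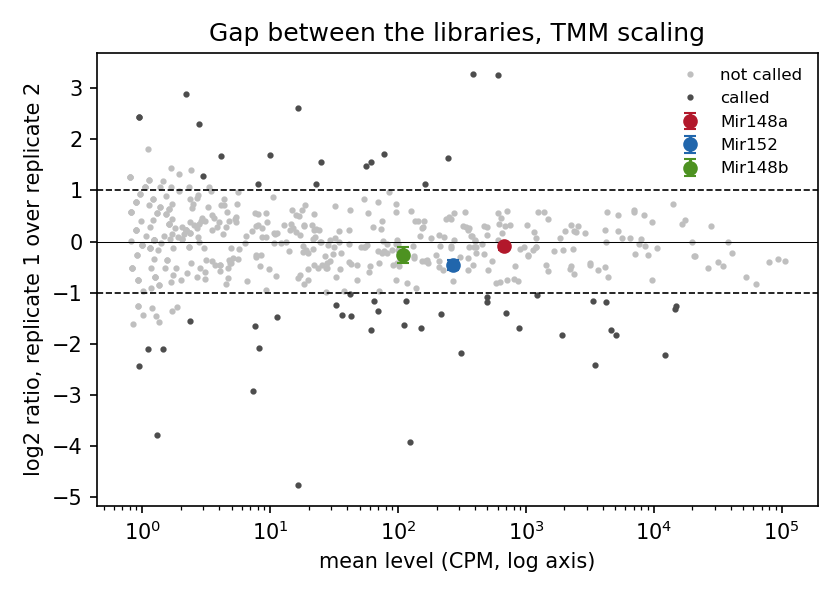
Log2 ratio of replicate 1 over replicate 2 (vertical axis) against mean level in CPM (log axis) for the 491 genes tested, called genes in dark grey, with dashed lines at 2-fold and 95% counting intervals on the 3 members. Mir148a, Mir152 and Mir148b lie between the dashed lines at −0.09, −0.46 and −0.27.

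The direction of 2 of the 3 gaps rested on the scaling. When libraries were scaled by total counts in place of TMM factors, the median log2 ratio of all genes moved by 0.33, Mir148a stood at 0.24 and Mir148b at 0.06, both then higher in replicate 1. Mir152 was at −0.12 and stayed higher in replicate 2. Over all genes, 18 were called higher in replicate 1 and 37 in replicate 2 with TMM factors, against 39 and 22 with total counts. No member passed 2-fold under either.

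**Figure D5:**
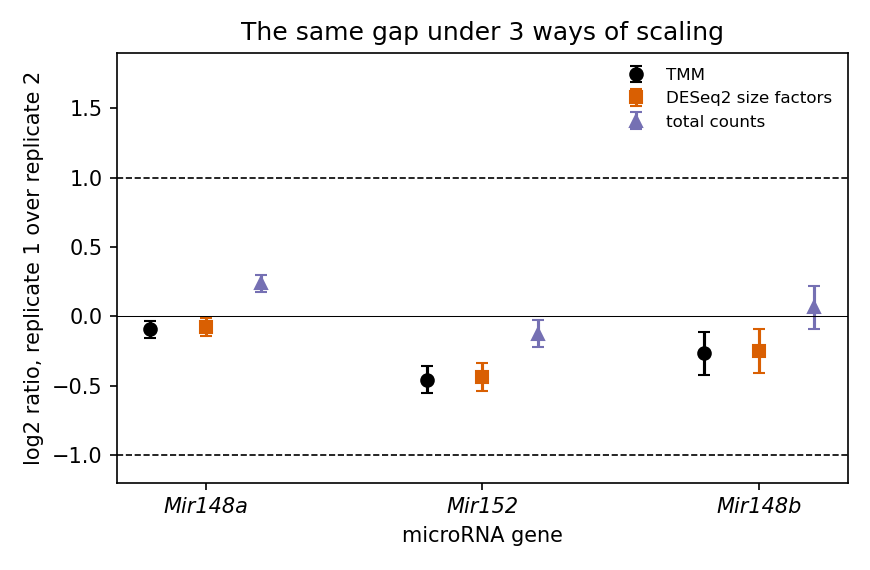
Log2 ratio of replicate 1 over replicate 2 for each gene under TMM factors (circles), DESeq2 size factors (squares) and total counts (triangles), with 95% counting intervals and dashed lines at 2-fold. Mir152 is below 0 under all 3 scalings, whereas Mir148a (−0.09, −0.08 and 0.24) and Mir148b (−0.27, −0.25 and 0.06) are above 0 with total counts.

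Marker genes of some cell types also differed between these hearts, and their part in the difference in family shares was not tested. Over all 491 genes tested, 11.2% were called, 18 higher in replicate 1 and 37 in replicate 2, and the counts below stand beside that share. The erythroid genes Mir451a, Mir144 and Mir486 summed to 788 CPM in replicate 1 and 300 CPM in replicate 2, with 2 of 3 called higher in replicate 1. The leukocyte genes Mir142, Mir223, Mir150 and Mir155 summed to 1301 and 872 CPM, with 1 of 4 called in each direction, of which Mir223 came inside 2-fold with total counts. Endothelial Mir126a was at 51829 and 73011 CPM, and smooth muscle Mir143 and Mir145a summed to 47055 and 60331 CPM, with 0 of 3 called. Of the 3 heart muscle genes, Mir499 (2653 and 7487 CPM) was called higher in replicate 2. Mir208a (10883 and 6019 CPM) and Mir208b (7457 and 5640 CPM) were higher in replicate 1 and were not called. The 7 epithelial genes summed to 595 and 662 CPM, with 3 called higher in replicate 2. Mir200c, the most abundant of them (420 and 284 CPM), and Mir141 (15.6 and 9.89 CPM) were higher in replicate 1 and were not called. Liver Mir122 was at 105 and 86.2 CPM, below Mir148a in both hearts, and was not called. Whether RNA from liver added to the counts of Mir148a was not tested. Of these markers Mir451a, Mir486, Mir142 and Mir126a share 20 nt with another annotated hairpin, on either strand. For Mir126a and Mir486 that hairpin, Mir126b or Mir3107, overlaps the gene itself on the opposite strand. Such an overlap is 1 place and does not by itself make reads multi-mapped. Whether Mir451a and Mir142 miss multi-mapped reads was not examined. The exact test of edgeR, with the limit given above, called 1 of all these marker genes, the epithelial Mir205. No marker gene of these lists was at 0 in both libraries.

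MicroRNA genes known, like this family, for targeting DNA methyltransferase transcripts covered a wide range of levels. Of 7 such genes, 1 was called higher in replicate 1, 1 higher in replicate 2, and 5 were not called, beside 11.2% called over all 491 genes tested (18 higher in replicate 1 and 37 in replicate 2). Their median log2 ratio was −0.47, beside −0.02 over all genes tested. Mir185, known for targeting the Dnmt1 transcript, was at 1122 and 92.9 CPM, called higher in replicate 1 (log2 ratio 3.26). Mir29c, known for targeting Dnmt3a and Dnmt3b transcripts, was at 23.2 and 49.8 CPM, called higher in replicate 2 (−1.43). In edgeR's exact test Mir185 stood out from the average gap of the pair (adjusted p = 0.00547) and Mir29c did not (adjusted p = 0.898), which with 1 library on each side settles nothing about either gene in other hearts.

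Mir143 was the most abundant of that list, at 45694 and 58717 CPM. Mir342 was at 3037 and 3334 CPM, and Mir29a at 204 and 196 CPM, between Mir152 and Mir148b. Mir29b-1 was at 9.97 and 7.42 CPM and Mir29b-2 at 1.25 and 2.47 CPM. Both share 20 nt with another annotated hairpin, as Mir29c does, and may miss multi-mapped reads. The Mir148/152 genes thus lay below Mir143 and Mir342 and above Mir29b-1, Mir29b-2 and Mir29c in both hearts.

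A further list held genes known for targeting transcripts of lipoprotein uptake, export or assembly, as Mir148a is. Of these 9 genes, 1 was called higher in replicate 1, 2 higher in replicate 2, and 6 were not called, against the same 11.2% over all genes tested. The median log2 ratio of the list was −0.01, beside −0.02 over all genes tested. The erythroid gene Mir144 was the first, at 96.9 and 26.0 CPM. Mir27b (3042 and 5455 CPM) and the myeloid gene Mir223 (83.1 and 148 CPM) were the others. With total counts as the scaling, Mir27b (log2 ratio −0.84) and Mir223 (−0.84) came inside 2-fold, and edgeR's exact test, limited in the same way, called none of these 3 genes.

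The cholesterol regulator Mir33, known for targeting the transcript of the exporter Abca1, was at 14.6 and 13.2 CPM, far below Mir148a. Mir128-1 was at 263 and 198 CPM, Mir128-2 at 27.1 and 21.7 CPM, Mir30c-1 at 311 and 241 CPM and Mir30c-2 at 439 and 325 CPM. Mir148a lay above each of these in both hearts. The limit is that Mir27b and the Mir128 and Mir30c genes share 20 nt with another hairpin. They may be undercounted, to an extent that was not examined. Only Mir27b of the 9 exceeded Mir148a.

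Genes with the levels most like each member, by distance in log2 CPM over the 2 libraries, were also looked up. For Mir148b these were Mir186 (114 and 108 CPM, distance 0.04), Mir5099 (116 and 103 CPM, 0.08) and Mir34c (mean 101 CPM, 0.18). For Mir152 they were Mir101b (259 and 287 CPM, distance 0.04), Mir30b (255 and 268 CPM, 0.06) and Mir224 (230 and 311 CPM, 0.22). The nearest to Mir148a were farther away: Mir497 (756 and 536 CPM, distance 0.21), Mir154 (682 and 528 CPM, 0.25) and Mir467d (831 and 538 CPM, 0.28).

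Reads from the opposite strand were nearly absent at these genes. Mir148a had 1 opposite-strand count in replicate 1 and 0 in replicate 2, the latter allowing a share of up to 0.0856%. Mir152 had 0 in both, which allows up to 0.182% and 0.190%, and Mir148b had 0 in both, which allows up to 0.418% and 0.496%. Counts without strand therefore gave the same family shares to within 0.01 percentage points.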

How the data were processed

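The authors deposited unnormalized counts, 1 table for each library with a line for every microRNA gene, with build mm10 and annotation M21 per the file headers that accompany them. Which aligner, read counter and trimming they used is not given in the sources used here. Of the 3 count columns, the own-strand column was used, without the 4 summary entries, which held 55.6% and 58.0% of reads. It made up 84.0% and 82.8% of own-strand and opposite-strand counts together, but this does not measure antisense reads. Where annotated genes overlap on opposite strands, the same reads enter both columns. In replicate 1 Gm25301 had 664363 opposite-strand counts, over Mir378a with 664357 own-strand counts. Libraries came from separately numbered animals. No molecular identifiers are named, so intervals and floors cover counting error only.

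Genes with at least 10 counts in the sum entered the exact binomial test, with TMM factors of 1.12 and 0.891 (edgeR 4.0.16, R 4.3.3) and 0.5 added to each count in log2 ratios. Code was tested on simulated data. DESeq2 1.42.0 size factors, total counts, other filters, 1 added, counts without strand and edgeR's exact test (biological coefficient of variation 0.353) were alternatives. Named genes were the members, the listed genes and the 3 genes nearest in level to each member. Members and lists were chosen with earlier results of these data known. Python 3.11.15 and scipy 1.17.1 were used.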

Additional observations from a re-analysis of the deposited data

How the results depend on the processing

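With the multi-mapped reads added to the total, the mean levels were 345 CPM for Mir148a, 136 for Mir152 and 55.8 for Mir148b. With counts without strand, whose total is smaller, they were 841, 335 and 136 CPM. The order of the genes was the same under both. TMM and DESeq2 scaling kept each mean level within 1 SD. Scaling by total counts turned the log2 ratio to 0.24 for Mir148a and 0.064 for Mir148b. No alternative took a member past 2-fold. EdgeR's exact test called 4 genes in all, against 55 by the binomial test, which counts no spread between hearts; its dispersion came from the same pair of libraries. Leaving out a heart leaves 1 library and no test: mean levels then ranged from 619 to 729 CPM (Mir148a), 256 to 279 (Mir152) and 107 to 112 (Mir148b), and shares from 61.6% to 66.5%, 23.3% to 27.8% and 10.2% to 10.6%. With 2 hearts, an SD is itself imprecise.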
